A study of Mus musculus with 8 samples.

Results

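The 10 genes considered here encode the enzymes that make hydrogen peroxide, superoxide and nitric oxide in the colon wall, together with the partners these enzymes need. They were the dual oxidases Duox1 and Duox2 with their maturation factors Duoxa1 and Duoxa2, the epithelial NADPH oxidase Nox1 with its organizer Noxo1 and its activator Noxa1, the phagocyte oxidase chains Cybb and Cyba, and the inducible nitric oxide synthase Nos2. They were read from the table of normalized counts, 10 of 26008 genes, and were chosen by name with their values in these same libraries known, namely that the normalized counts of Duox2 and its partner were low in the knockout chimeras. Their differences between the genotypes are therefore given as a description. Calls from the fits over all genes are listed further on, and nothing is read from them for these genes. The mean over the 8 libraries reached 10 normalized counts for all 10, which were thus among the 19127 genes carried through the comparison, with means from 24.6 for Duox1 to 8781 for Duox2.

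The samples were colonic biopsies from male C57BL/6JRj hematopoietic chimeras, 1 mouse per RNA-seq library. Wild-type recipients, irradiated at 7 weeks of age, had received bone marrow from proenkephalin-deficient donors (penk-/-, 4 mice) or from wild-type littermate donors (penk+/+, 4 mice) aged 9 to 11 weeks, and were examined 18 weeks after engraftment. The deletion, a neomycin cassette in exon 2 of Penk, was carried by marrow-derived cells only, and the epithelium, muscle and nerves of both groups were those of wild-type irradiated hosts. The libraries held 33.1 to 50.7 M reads in penk-/- chimeras and 33.6 to 48.0 M in penk+/+ chimeras. Penk mRNA, which host cells of both groups could still make, stood at 453, 512, 616 and 531 normalized counts in penk-/- replicates 1 to 4 and at 473, 496, 560 and 636 in penk+/+ replicates 1 to 4. These ranges overlapped along most of their length, with a log2 difference of -0.03 (SE 0.12), so Penk in whole biopsies did not separate the genotypes.

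A pair of libraries stood apart from the rest. Probasin (Pbsn), a secretory protein of the prostate that colon does not make, was at 0, 7638, 105658 and 4803 normalized counts in penk-/- and at 13425, 2398, 0 and 111024 in penk+/+ replicates 1 to 4. Penk-/- replicate 3 and penk+/+ replicate 4 thus held far more RNA of male accessory glands than the others, and the differences of the leading genes are given with and without both.

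Dual oxidases sit in the apical membrane of epithelial cells and release hydrogen peroxide into the lumen. They leave the endoplasmic reticulum only with a maturation factor, DUOXA2 for DUOX2 and DUOXA1 for DUOX1. In the gut DUOX2 is the inducible one, raised by the microbiota and by inflammatory signals in surface epithelial cells. NOX1 is the constitutive superoxide-producing oxidase of colonic epithelium and works with p22phox (encoded by Cyba), NOXO1 and NOXA1. Cybb encodes gp91phox, the catalytic chain of the same kind of complex in neutrophils and macrophages, which also needs p22phox. NOS2 makes nitric oxide in stimulated macrophages and epithelial cells.

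The 4 dual oxidase genes lay side by side on chromosome 2, within 68726 bases (GRCm39, GENCODE M39 annotation). Duox2 (ENSMUSG00000068452) occupied chr2:122109728-122128930 on the minus strand and Duoxa2 (ENSMUSG00000027225) chr2:122129380-122133366 on the plus strand, so that the pair was transcribed away from a common interval of 450 bases between their first bases. The start of Duox2 differs between annotations, and in RefSeq this distance was 673 bases. Duoxa1 (chr2:122132672-122144217, minus) and Duox1 (chr2:122146153-122178453, plus) formed a second divergent pair with starts 1936 bases apart. The 250 bases upstream of Duox2 and Duoxa2 are shown because these genes were the leading pair and their upstream windows overlapped. Each is written 5' to 3' on the strand of its gene, from the GRCm39 genome, and capitals mark the 51 bases that both windows hold on opposite strands.
Duox2 (chr2:122128931-122129180, minus): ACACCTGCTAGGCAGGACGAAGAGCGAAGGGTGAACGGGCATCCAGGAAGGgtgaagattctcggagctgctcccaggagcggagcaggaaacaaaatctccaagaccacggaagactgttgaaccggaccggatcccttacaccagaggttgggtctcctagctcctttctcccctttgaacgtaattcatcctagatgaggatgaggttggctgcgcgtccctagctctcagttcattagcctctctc
Duoxa2 (chr2:122129130-122129379, plus): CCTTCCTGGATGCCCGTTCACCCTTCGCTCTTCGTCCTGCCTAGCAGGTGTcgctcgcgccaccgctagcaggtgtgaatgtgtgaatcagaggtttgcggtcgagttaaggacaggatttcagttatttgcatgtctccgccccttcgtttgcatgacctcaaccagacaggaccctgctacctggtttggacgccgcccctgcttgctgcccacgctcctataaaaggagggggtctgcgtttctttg
Searched on both strands neither window held TTCNNNGAA (a STAT-type motif) or CACGTG (an E-box), and these occurred in 0 of the 10 windows of the oxidase genes. Of the 25775 windows of genes in the table, 7.12% held TTCNNNGAA and 5.59% held CACGTG. Such letter matches describe the windows and are not binding sites.

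Levels were compared between genes as normalized counts per kilobase of annotated exon, averaged over the 8 libraries. Duox2 stood highest in this average at 1297 ± 431 (SD, n = 8), and Noxa1 followed at 1014 ± 66.3. Their order turned with the genotype, with means of 1654 and 1015 in penk+/+ but 939 and 1013 in penk-/- chimeras. Cyba lay at 579 ± 53.2 per kb, Duoxa2 at 454 ± 177 and Nox1 at 416 ± 63.0. Duoxa2 and Nox1 also changed order, at 572 and 413 in penk+/+ against 336 and 418 in penk-/- chimeras. Cybb was at 99.8 ± 22.5, Noxo1 at 68.7 ± 8.68 and Nos2 at 42.8 ± 21.5. The other dual oxidase pair was close to the bottom of the range, with Duoxa1 at 6.54 ± 1.65 and Duox1 at 4.67 ± 1.45 per kb. Duox2 was thus the dual oxidase of these biopsies, 127 to 660 times higher per kb than Duox1 in every library, and Duoxa2 was 38.2 to 140 times higher than Duoxa1.

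Along this order, only 3 neighbouring pairs had ranges that did not overlap, namely Noxa1 above Cyba, Nox1 above Cybb and Nos2 above Duoxa1, each in 8 of 8 libraries. Duox2 exceeded Noxa1 in 5 of 8 libraries and Duoxa2 exceeded Nox1 in 4 of 8, with ranges that overlapped over the 8 libraries. These tallies split by genotype. In penk+/+ chimeras Duox2 spanned 1430 to 1985 per kb and Noxa1 959 to 1093, and Duoxa2 exceeded Nox1 in every library. In penk-/- chimeras Duoxa2 was below Nox1 in every library, and Duox2 exceeded Noxa1 in replicate 1 only. Cyba exceeded Duoxa2 in 6 libraries, Cybb exceeded Noxo1 in 7, Noxo1 exceeded Nos2 in 7 and Duoxa1 exceeded Duox1 in 6, all with overlapping ranges. Dividing by the longest annotated transcript in place of all exons raised the mean of Nox1 over the 8 libraries to 536, above that of Duoxa2. Several of these genes overlap a neighbour on the opposite strand (Duoxa1 with Duoxa2 over 695 bases, Noxo1 with Tbl3 over 2582 and with Gfer over 872, Cybb with Xk over 2287, Nox1 with Cstf2 over 564). Libraries were stranded, but the strand setting of the counting is not given in the sources used here, and the low levels of Duoxa1 and Noxo1 in particular are uncertain for that reason.

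**Figure D1:**
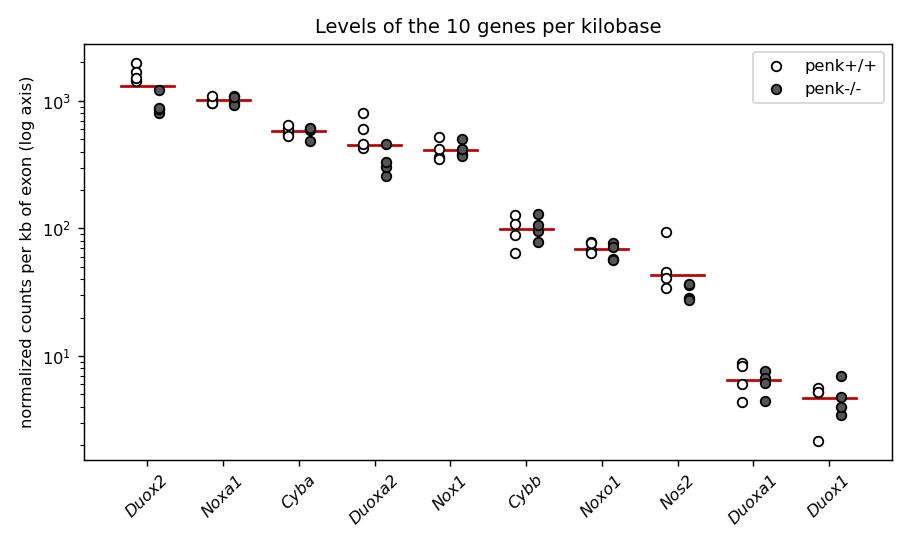
Normalized counts per kilobase of annotated exon (log axis) for the 10 genes, ordered by their mean over 8 libraries (red line). Each circle is 1 library, open for penk+/+ and filled for penk-/-. Duox2 is at the top with a mean of 1297 and Duox1 at the bottom with 4.67, and in Duox2 all filled circles lie under the open ones.

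Duox2 mRNA was lower in penk-/- chimeras. It was at 8175, 5441, 5853 and 5970 normalized counts in penk-/- replicates 1 to 4, against 13437.5, 9680, 11377 and 10316 in penk+/+ replicates 1 to 4. Every penk-/- library lay under every penk+/+ library, the closest being penk-/- replicate 1 and penk+/+ replicate 2. The means were 6360 ± 1231 and 11202.5 ± 1646 (SD, n = 4 each), 43.2% lower in penk-/- chimeras, with a log2 difference of -0.82 (SE 0.14). Of the 19127 genes compared, 158 (0.826%) had a log2 difference at or below that of Duox2. In whole biopsies, fewer cells of a type and less RNA per cell cannot be told apart.

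Duoxa2, the gene next to it whose product carries DUOX2 to the cell surface, was at 727, 410, 480 and 525 in penk-/- replicates 1 to 4. In penk+/+ replicates 1 to 4 it was at 1268, 684, 966 and 726. The groups overlapped only through penk-/- replicate 1, which lay just above penk+/+ replicates 2 and 4, while the other 3 penk-/- libraries were below all 4 penk+/+ libraries. The means were 535 ± 136 and 911 ± 269, 41.2% lower in penk-/- chimeras, with a log2 difference of -0.75 (SE 0.22), and 225 genes (1.18%) lay at or below this value. Replicate 1 was the highest library for both genes in both genotypes.

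The second dual oxidase pair did not separate the genotypes. Duox1 was at 25.2, 18.3, 21.1 and 36.5 normalized counts in penk-/- and at 27.4, 11.4, 29.6 and 27.4 in penk+/+ replicates 1 to 4. Duoxa1 ranged from 18.8 to 32.3 in penk-/- and from 18.4 to 37.3 in penk+/+ chimeras. The groups overlapped for both genes, with log2 differences of 0.11 (SE 0.34) for Duox1 and -0.11 (SE 0.28) for Duoxa1. At 12 to 33 reads per library for Duox1 and 17 to 37 for Duoxa1, counting error is wide. What size of difference these libraries could detect was not tested.

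Nox1, the constitutive oxidase of the same epithelium, did not separate the genotypes. It was at 1648, 1273, 1218 and 1387 in penk-/- and at 1200, 1378, 1722 and 1167 in penk+/+ replicates 1 to 4. The groups overlapped along nearly their whole range and the log2 difference was 0.02 (SE 0.14). Its organizer Noxo1 spanned 246 to 334 in penk-/- and 279 to 341 in penk+/+ chimeras (log2 difference -0.14, SE 0.13). Its activator Noxa1 spanned 1522 to 1788 and 1570 to 1789, the tightest of the 10 genes across libraries, with a log2 difference of -0.00 (SE 0.07).

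The phagocyte oxidase chains did not separate them either. Cybb, the catalytic chain, was at 453, 560, 618 and 750 in penk-/- and at 376, 742, 624 and 520 in penk+/+ replicates 1 to 4 (log2 difference 0.09, SE 0.21). Cyba, shared by the epithelial and the phagocyte enzyme, ranged from 1121 to 1413 and from 1226 to 1504 (log2 difference -0.03, SE 0.10). For both chains the groups overlapped.

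Nos2 was at 159, 126, 164 and 122 in penk-/- and at 200, 151, 182 and 418 in penk+/+ replicates 1 to 4. The groups overlapped, since penk+/+ replicate 2 lay under penk-/- replicates 1 and 3, and penk+/+ replicate 4 lay far above every other library. The means were 142 ± 21.7 and 238 ± 122, with a log2 difference of -0.63 (SE 0.28). This value rested to a large part on 1 library, and without penk+/+ replicate 4 it was -0.32.

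**Figure D2:**
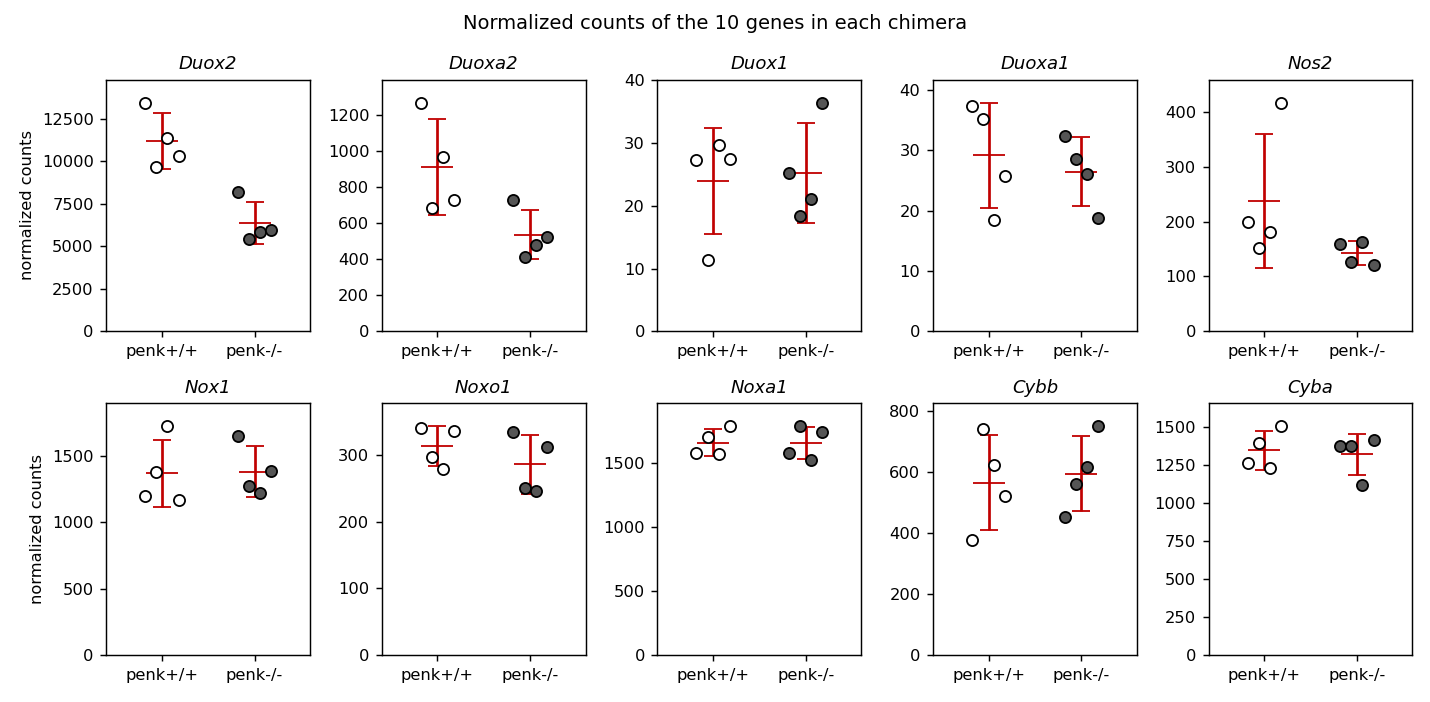
Normalized counts of each of the 10 genes in 8 libraries, on linear axes starting at 0. Each circle is 1 chimera, replicates 1 to 4 from left to right within a genotype, and red marks give the mean and SD. Duox2 is the 1 gene whose genotypes do not overlap, and penk+/+ replicate 4 stands alone for Nos2.

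Counted together, 7 of the 10 members had a negative log2 difference and 3 a positive one, where 48.9% of all genes tested were lower. Their median log2 difference was -0.07, against 0.01 over all genes tested. The genotypes did not overlap for 1 of the 10, Duox2, beside 5.63% of all genes tested (2.74% lower and 2.89% higher). No gene, and so none of the 10, passed an adjusted p of 0.05 in limma (0% of 19127, smallest adjusted p = 0.132), while 1842 genes had an unadjusted p under 0.05. On whole reads of 7 libraries, all but penk-/- replicate 1, edgeR called 5 genes (0.0261%) and 0 of the 10, and DESeq2 called 360 genes (1.88%), Duox2 and Duoxa2 among them. That library was the highest of its group for both genes. Limma without it called 6 genes (0.0313%), Duox2 among them, with a log2 difference of -0.95, so the calls of DESeq2 differ from those of limma on 8 libraries by this omission as well as by the tool. Since the 10 genes were chosen with this contrast known, nothing is read from these counts. Where the choice fell, Duox2, Duoxa2 and Nos2 had differences from -0.82 to -0.63, and the remaining 7 genes were all within 0.2 of 0.

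**Figure D3:**
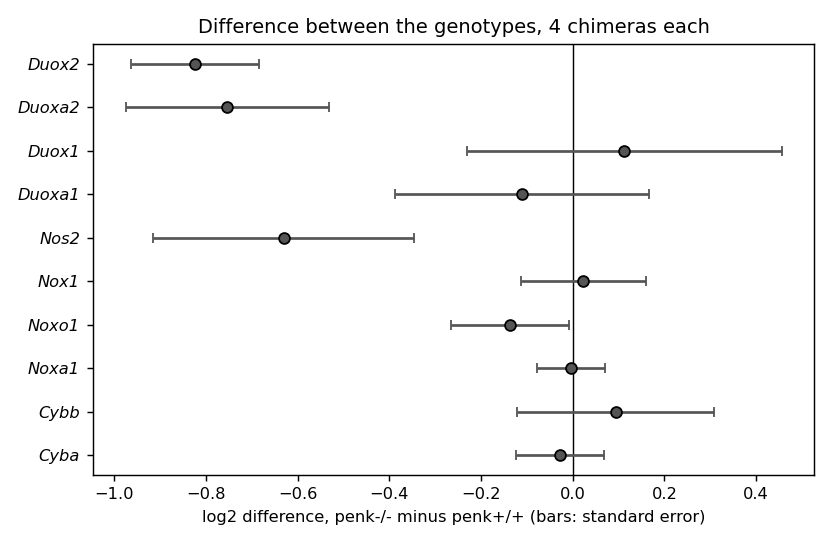
Log2 difference of each gene, penk-/- minus penk+/+, from limma on log2(normalized count + 1), with bars of 1 standard error (4 chimeras per genotype). Duox2, Duoxa2 and Nos2 lie at -0.82, -0.75 and -0.63, and the other 7 genes between -0.14 and 0.11.

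Since an oxidase needs its partners, their transcripts were set against each other inside each library. Duox2 was 2.65, 3.12, 2.87 and 2.68 times as high per kb as Duoxa2 in penk-/- replicates 1 to 4, and 2.49, 3.33, 2.77 and 3.34 times in penk+/+ replicates 1 to 4. The ratio stayed between 2.49 and 3.34 in all 8 libraries, with means of 2.83 ± 0.22 and 2.98 ± 0.42 (SD, n = 4 each), and the genotypes overlapped. The ratio of Duox2 to Nox1 was 2.09 to 2.42 in penk-/- and 3.23 to 5.47 in penk+/+ chimeras, without overlap, as the levels of both genes already implied. Nox1 to Noxo1 spanned 4.59 to 8.13 over the 8 libraries, Nox1 to Noxa1 0.323 to 0.543, and Cyba to Cybb 4.58 to 8.45. For these 3 ratios the genotypes overlapped.

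**Figure D4:**
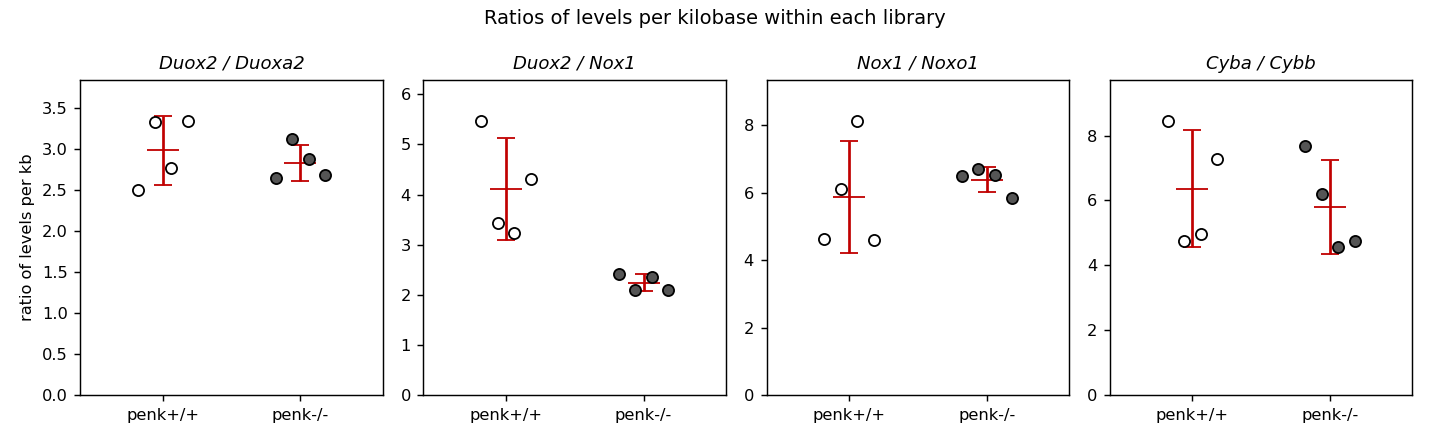
Ratios of levels per kilobase of exon inside each library, with the mean and SD in red (open circles penk+/+, filled penk-/-, replicates 1 to 4 from left to right, axes starting at 0). The ratio of Duox2 to Duoxa2 stays between 2.49 and 3.34 in both genotypes, whereas that of Duox2 to Nox1 is 2.09 to 2.42 in penk-/- and 3.23 to 5.47 in penk+/+ chimeras.

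Whether oxidases and partners varied together from mouse to mouse was tested apart from the genotype difference, on the deviation of each library from the mean of its own genotype (log2 scale). The p-values come from an exact permutation test within genotypes (two-sided, over every arrangement) and were adjusted over the 14 relations computed. Duox2 and Duoxa2 deviated together, with Pearson's r = 0.964 over 8 libraries (exact permutation p = 0.00174, the smallest obtained, adjusted p = 0.0243). Spearman's rho was 0.952 (exact permutation p = 0.00347, adjusted p = 0.0486). Replicate 1 of both genotypes lay farthest out, at 0.38 and 0.27 above the mean for Duox2 and at 0.47 and 0.52 for Duoxa2. Without these 2 libraries r was 0.975 (exact permutation p = 0.0278, the smallest that 6 libraries split this way allow, adjusted p = 0.389). Without penk-/- replicates 2 and 3, the libraries farthest from the median Duox2 level, r was 0.950 (exact permutation p = 0.0208, again the smallest allowed, adjusted p = 0.292). Among 13256 genes with a mean of at least 100, 13 (0.0981%), Duoxa2 included, followed Duox2 at least this closely.

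No other relation passed the adjustment over all 8 libraries. Duox1 and Duoxa1 gave r = -0.590 (rho -0.667, adjusted exact permutation p = 0.627 for r). Nox1 gave r = 0.0650 with Noxo1 (rho 0.238, adjusted exact permutation p = 0.863) and r = -0.334 with Noxa1 (rho -0.190, adjusted exact permutation p = 0.760). Cybb and Cyba gave r = 0.0901 (rho -0.119, adjusted exact permutation p = 0.863). With 8 libraries, these values do not show that the pairs vary independently. Duox2 gave r = 0.433 with Duox1, 0.379 with Nox1, 0.0796 with Nos2 and -0.743 with Cybb, the last with an adjusted exact permutation p of 0.267 and r = 0.0430 without replicate 1 of both genotypes, on which it rested. The value with Nos2 depended on the libraries rich in accessory gland RNA, with r = 0.695 without penk+/+ replicate 4 and 0.952 without both (adjusted exact permutation p = 0.259 for the latter). Nox1 and Cybb gave r = 0.179 (adjusted exact permutation p = 0.863).

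**Figure D5:**
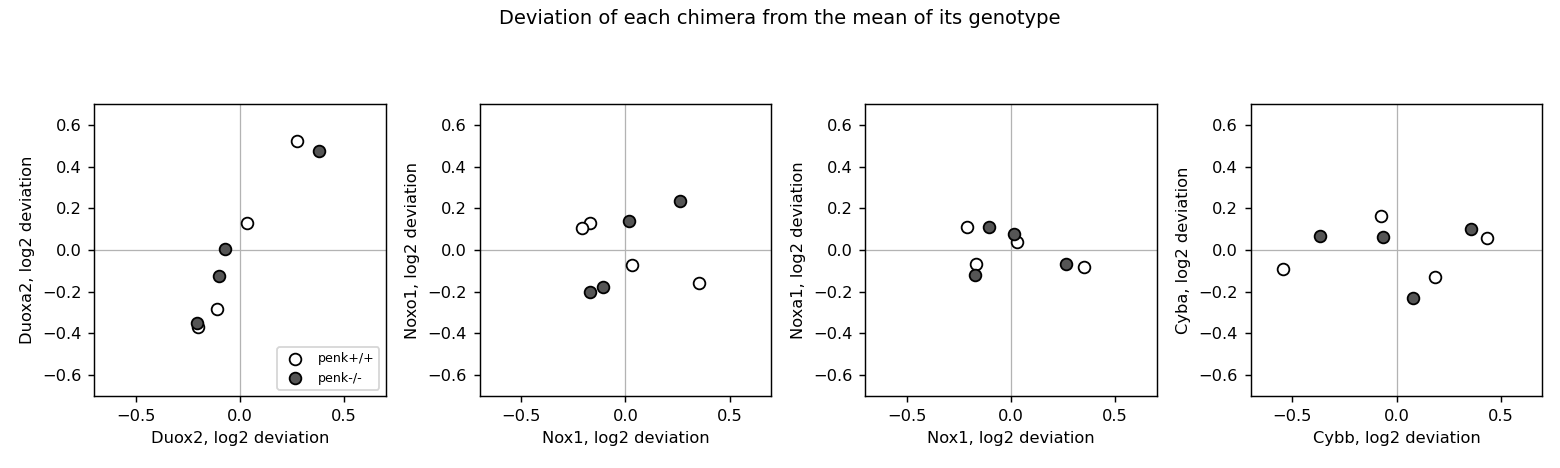
Deviation of each library from the mean of its genotype (log2 units on both axes) for 4 pairs of an oxidase chain and its partner, open circles penk+/+ and filled circles penk-/-. Duox2 and Duoxa2 lie along a rising line (r = 0.964), and the other pairs, with r = 0.0650, -0.334 and 0.0901, show no such line.

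The genes whose deviations were most like those of Duox2 over the 8 libraries, out of 13257 genes with a mean of at least 100, were Abhd13 (r = 0.994), Zfp160 (0.990), Cdc5l (0.989), Ccnt2 (0.984) and Pgs1 (0.977). For all 5 the genotypes overlapped, and their log2 differences ran from -0.12 to 0.06. The genes most like Nox1 were Thoc5 (r = 0.967), Ndufaf5 (0.956), Gm5431 (0.954), Zranb2 (0.941) and Igsf9b (0.935). These correlations share libraries and depth and are a description only.

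Markers of several cell types leaned with the genotype. All 8 epithelial markers (Epcam, Cdh1, Krt8, Krt18, Krt19, Krt20, Vil1 and Cldn7) were lower in penk-/- chimeras, with a median log2 difference of -0.17, though 0 of 8 passed the test. Their summed level was 485289, 418742, 358348 and 458406 in penk-/- and 519965, 470487, 445965 and 473280 in penk+/+ replicates 1 to 4, with Krt8 the most abundant. Penk-/- replicate 1, the highest penk-/- library for Duox2, was also the highest of its group in this sum, and penk+/+ replicate 1 was the highest of its own. Of 6 surface colonocyte markers 5 were lower (median -0.30), Ceacam20, an apical adhesion molecule, at -0.40 (SE 0.19) and Slc26a3, the chloride-bicarbonate exchanger of surface cells, at -0.36 (SE 0.22). Of 7 goblet cell markers 5 were lower (median -0.07).

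With the epithelial score, the mean of the 8 markers on the centred log2 scale, added to the fit as a covariate, the log2 difference was -0.66 (SE 0.13) for Duox2 and -0.52 (SE 0.22) for Duoxa2. Within genotypes Duox2 followed this score with r = 0.638 (rho 0.548, adjusted exact permutation p = 0.516), a value that rested on replicate 1 of both genotypes (r = -0.144 without them), and Nox1 with r = 0.199 (rho 0.0952, adjusted exact permutation p = 0.863). The part of the epithelial markers in the difference of Duox2 was not tested.

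Macrophage markers leaned the other way. Of 10 macrophage markers 9 were higher in penk-/- chimeras (median log2 difference 0.27, 0 of 10 called), among them Cd68 at 0.31 (SE 0.17), C1qa at 0.30 (SE 0.18) and Lyz2, the most abundant, at 0.19 (SE 0.16). By flow cytometry, the paper reported a lower frequency of macrophages and dendritic cells among colonic hematopoietic cells of penk-/- chimeras. That is a share of these cells in other mice, not RNA of whole biopsies. Cybb followed the macrophage score within genotypes with r = 0.908 (exact permutation p = 0.0104, adjusted p = 0.0729) and rho 0.857 (adjusted exact permutation p = 0.267). Without penk-/- replicate 4 the adjusted exact permutation p for r was 0.0486, and without each other library it ran from 0.0972 to 0.486. The value of 0.0486 came with a tie, since Duox2 with Duoxa2 had the same exact permutation p of 0.00694, the smallest that 7 libraries allow. Without replicate 1 of both genotypes, the libraries lowest in Cybb, r was 0.663. Cyba gave r = -0.126 with the same score (rho -0.429, adjusted exact permutation p = 0.863). The libraries with the most Cybb in each group also had its highest summed level of B cell markers. These sums were 1498 in penk-/- replicate 4 and 1413 in penk+/+ replicate 2, and the relation of Cybb to B cell markers was not tested. Of 9 neutrophil markers, 2 were abundant enough to compare, Csf3r at 0.20 (SE 0.31) and Ly6g at -0.42 (SE 0.14). Their means over the 8 libraries lay far apart, at 56.5 for Csf3r and 4506 for Ly6g. Which cells gave the Ly6g signal was not tested, and its difference is not read as one of neutrophils. S100a8, S100a9 and Camp lay below a mean of 10, and Cxcr2, Mpo, Elane and Ngp were not analysed here.

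Of 6 smooth muscle markers 4 were higher (median 0.09), and of 5 B cell markers 4 (median 0.31) with a wide spread, their sum running from 212 to 1498 among libraries. Without the 2 libraries rich in accessory gland RNA (summed marker levels 220220 and 227250) the log2 difference was -0.83 for Duox2, -0.81 for Duoxa2 and -0.39 for Nos2, whose highest library was one of them.

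The other subunits and enzymes of the pathway were followed as lists, chosen with earlier results of these libraries known. Of 7 cytosolic and accessory subunits of the phagocyte oxidase, 3 were lower and 4 higher in penk-/- chimeras, 0 were called and the median log2 difference was 0.11. Rac2, the hematopoietic GTPase of the complex, was at 277 ± 86.2 in penk-/- and 233 ± 73.7 in penk+/+ (log2 difference 0.26, SE 0.27). The organizer Ncf1 (0.11, SE 0.23), the regulator Ncf4 (0.14, SE 0.28) and the proton channel Hvcn1 (0.23, SE 0.34) all overlapped between genotypes, as did Rac1, the most abundant, at -0.09 (SE 0.07). Nox4, a constitutively active oxidase, was low, at 49.9 ± 13.4 against 57.1 ± 18.9 (-0.16, SE 0.29), and Nox3 was not analysed here. For all 7 subunits the genotypes overlapped, as for Cybb and Cyba.

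Of the haem peroxidases that spend hydrogen peroxide, lactoperoxidase (Lpo) was at 0.20 (SE 0.15) and peroxidasin (Pxdn) at 0.18 (SE 0.15), neither called. Epx was below the minimum level and Mpo was not analysed here. Of 17 genes that remove hydrogen peroxide or superoxide, 8 were lower and 9 higher, with a median of 0.01 and 0 called. Prdx6, the most abundant, was at 148615 ± 9576 against 193001 ± 51036 (log2 difference -0.34, SE 0.18). Prdx1 was the 1 gene of 17 without overlap between genotypes, a share near the 5.63% of all genes tested, at 17081 ± 140 against 17625 ± 235 (-0.05, SE 0.05). Gpx1, the largest difference on the list at 0.50 (SE 0.25), rested on low values of 49.6 ± 5.83 and 36.0 ± 11.7.

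Of 9 targets of NRF2, the transcription factor that answers oxidative stress, 5 were lower and 4 higher, with a median of -0.03 and 0 called. Sulfiredoxin (Srxn1), which repairs overoxidized peroxiredoxins, was lower in every penk-/- library than in any penk+/+ library, at 3428 ± 344 against 4532 ± 321 (log2 difference -0.41, SE 0.08), the 1 gene of 9 without overlap beside 5.63% of all genes tested. Hmox1, which degrades haem, lay on the other side at 0.34 (SE 0.15), as did the quinone reductase Nqo1 at 0.18 (SE 0.10), and Txnrd1, the most abundant, was at -0.12 (SE 0.08). The list thus held differences of both signs.

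Around Nos2, of 7 genes of nitric oxide synthesis and arginine use 4 were lower and 3 higher (median -0.03, 0 called). Endothelial Nos3 was at 55.7 ± 23.0 against 31.9 ± 4.77 (log2 difference 0.70, SE 0.30), and neuronal Nos1, with means of 838 against 961, at -0.20 (SE 0.12). The arginine transporter Slc7a2 was at 0.11 (SE 0.23). Ass1, which recycles citrulline to arginine, was at -0.05 (SE 0.09).

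The pathway list with the lowest median held epithelial genes known to be induced together with it by bacteria and inflammation. Of its 18 genes 16 could be compared (Reg3g and Retnlb were below the minimum level), and 14 were lower and 2 higher in penk-/- chimeras, with a median log2 difference of -0.32, beside 48.9% lower and a median of 0.01 over all genes tested. None was called by limma. The chemokine Cxcl1 was at 32.8 ± 12.9 against 61.7 ± 17.4 (-0.92, SE 0.31), the nucleic acid sensor Zbp1 at -0.55 (SE 0.37), the acute-phase protein Saa1 at 41187 ± 10179 against 59767 ± 16852 (-0.53, SE 0.21) and the A20-binding inhibitor Tnip3 at -0.50 (SE 0.18). Pigr, the IgA transporter and the most abundant of the list, was at 204863 ± 21155 against 248696 ± 18028 (-0.28, SE 0.12). Cxcl5 was the 1 gene of 16 whose genotypes did not overlap, near the 5.63% of all genes tested. These are largely genes of the epithelium, whose markers were lower too, and the part of the epithelial share in this count was not tested.

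Of 16 receptors and signal transducers that act upstream of the oxidases, 9 were lower and 7 higher (median -0.03, 0 called). Tlr4, the lipopolysaccharide receptor, was at 1306 ± 171 against 1815 ± 329 (log2 difference -0.47, SE 0.14), the interferon gamma receptor chain Ifngr1 at 15012 ± 2324 against 19490 ± 1945 (-0.38, SE 0.11) and the adaptor Ticam1 at -0.32 (SE 0.13). Nod1, a sensor of bacterial peptidoglycan, was higher by 0.21 (SE 0.08). Nfkb1 was the 1 gene of 16 without overlap, again near the 5.63% of all genes tested, at 3426 ± 105 against 3719 ± 142 (-0.12, SE 0.05). By DESeq2 on the 7 libraries without penk-/- replicate 1, which had more Saa1 and Tnip3 than any other penk-/- library, 9 of the 74 genes tested in these pathway lists, the 10 oxidase genes left aside, were called, beside 1.88% of all genes, namely Cxcl1, Dmbt1, Ifngr1, Nfkbiz, Pigr, Saa1, Srxn1, Tlr4 and Tnip3, and edgeR and limma on the same libraries called 0 of the 74.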

How the data were processed

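Colonic poly-A RNA of 8 chimeras was sequenced in stranded, paired-end libraries. Per the labels the authors used FastQC, STAR 2.7.8a on GRCm39 and DESeq2 1.30.0. The deposited values are a normalized count signal, reads divided by a library size factor, for 26008 genes (25776 matched to GENCODE M39, 0 value columns unused). Members and lists were chosen with earlier results of these data known. A few list genes are not reported here. Named genes were the members, the 4 largest differences and the most abundant gene of each list, and the 5 genes most like Duox2 and Nox1. Prdx1, Cxcl5 and Nfkb1 (no overlap) and Dmbt1 and Nfkbiz (DESeq2) were named after their values were seen. The genotype contrast was fitted in R 4.3.3 (limma 3.58.1) on log2(value + 1) with a variance trend, for genes with a mean of at least 10 and Benjamini-Hochberg adjustment. Values were whole multiples of 1 read (within 1e-06) in all 8 libraries. EdgeR 4.0.16 and DESeq2 1.42.0 were run on 7, without penk-/- replicate 1. An automatic guard against rounded values refused that library because its value of 1 read (1.01) is close to 1, although its values too were whole multiples. Correlations used numpy 2.4.6, with ranks from scipy 1.17.1. Fits were tested on simulated data. Median depth was 38.5 M reads. Each library came from a separate mouse, and same-numbered libraries did not deviate together. Overlaps of gene models make antisense neighbours uncertain.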

Additional observations from a re-analysis of the deposited data

Results flagged for a closer look

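Among 116 groups of 4 libraries examined for these genes, pathway examples, scores and ratios, 7 had 1 library set far apart from the other 3, where chance gives about 1 in 20 (5.8). The number in brackets is how far that library stood from its closest neighbour, as a share of the range of its group. Duox1 was at 11.4 in penk+/+ replicate 2 against 27.4 to 29.6 in the others (0.876), and Cyba was at 1121 in penk-/- replicate 3 against 1374 to 1413 (0.865). Slc7a11, the cystine transporter, was at 99.6 in penk-/- replicate 3 against 126 to 131 (0.831). Nos1 was at 1153 in penk+/+ replicate 3 against 867 to 913 (0.841). Among genes known to be induced with Duox2, Saa1 was at 84898 in penk+/+ replicate 1 against 49017 to 53427 (0.877) and Tnip3 at 1588 in penk-/- replicate 1 against 951 to 1057 (0.833). Both stood out in the library of their genotype with the most Duox2. The macrophage score was -0.13 in penk-/- replicate 1 against 0.19 to 0.21 (0.920).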

How the results depend on the processing

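Duox2, Duoxa2 and Nos2 stayed lower in penk-/- chimeras under all 21 alternatives run, the log2 difference of Duox2 from -0.96 to -0.66, and that of the other 7 genes changed sign under at least 1. The median of the 10 genes ran from -0.15 to 0.02. All 208 single-gene alternatives moved by less than 1 SD of the replicates. A minimum mean of 50 left out Duox1 and Duoxa1. Genes called by limma went from 0 to 1 with quantile normalization and to 1 with the epithelial score as a covariate, edgeR called 5 and DESeq2 360 on 7 libraries (without penk-/- replicate 1), and leaving out 1 library gave 0 to 6 (6 without penk-/- replicate 1). With a replicate block 1 gene was called, Duox2, and 2938 had an unadjusted p under 0.05, but the labels pair no mice by number, the correlation of same-numbered libraries was 0.145, -0.0444, -0.320 and -0.162, and 0 of 4 numbers matched each other best. Duox2 with Duoxa2 kept r = 0.950 without the 2 libraries farthest in level (penk-/- replicates 2 and 3), 0.975 without the 2 farthest in deviation (replicate 1 of both genotypes), 0.971 without both libraries rich in probasin and 0.955 to 0.987 without 1 library each. In all 8 of the latter cases the exact permutation p was 0.00694, the smallest that 7 libraries allow. The adjusted p was 0.0972 in the 7 cases where no other relation reached that p, a value set by the number of libraries. Cybb with the macrophage score gave 0.811 to 0.965 without 1 library each, and 0.663 without the 2 farthest in level. It passed the adjustment only without penk-/- replicate 4 (adjusted exact permutation p = 0.0486, against 0.0972 to 0.486 without each other library). There it tied with Duox2 and Duoxa2 at the smallest p, and no relation that held this p alone passed. Weak correlations changed sign. Cybb with Cyba was -0.119 by Spearman, -0.0341 without the 2 farthest in level, -0.255 without the 2 farthest in deviation and -0.174 to 0.248 without 1 library. Without the 2 farthest by either measure, Nox1 with Noxa1 was 0.306 and Cyba with the macrophage score 0.456. Without replicate 1 of both genotypes, Duox2 with Cybb was 0.0430 and Duox2 with the epithelial score -0.144. Without both probasin-rich libraries Cyba with the macrophage score was 0.342, Duox2 with Nos2 0.952 (adjusted p = 0.259), Nox1 with Noxo1 -0.00345 and Nox1 with the epithelial score -0.115. Without 1 library each, Nox1 with Noxo1 ran from -0.400 to 0.581, Nox1 with the epithelial score from -0.204 to 0.685, Cyba with the macrophage score from -0.530 to 0.0890, Duox2 with Nox1 from -0.0756 to 0.735, Duox2 with Nos2 from -0.167 to 0.695 and Nox1 with Cybb from -0.106 to 0.599. The cause was not tested. The probasin, covariate and deviation alternatives were chosen after seeing the data.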
